A study of Homo sapiens with 34 samples.

Results

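Long noncoding RNAs (lncRNAs) are transcripts that are not translated into protein. Many of them start beside a protein-coding gene and share its promoter, so that a peak there cannot be given to either gene. The promoters described here belong to the other lncRNAs, the isolated ones. They are the GENCODE lncRNA genes on chromosomes 1 to 22 and X whose canonical transcription start site (TSS) lies more than 5 kb from each TSS of a protein-coding transcript. A promoter was the TSS with 1 kb to either side. The rule left 13493 of 18756 lncRNA genes, which are 13493 of the 38726 lncRNA and protein-coding promoters examined. It used the annotation alone and no measured value. The regions of 1207 members overlapped the region of another member, and such neighbors can share a peak.

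RBPJ binds DNA and is the factor by which the cleaved NOTCH receptor (N1-ICD for NOTCH1) acts on its target genes. Together with N1-ICD it recruits coactivators of the Mastermind family, and without N1-ICD it can bind corepressors. SOX2 is a pluripotency factor of the high mobility group family that binds variants of the sequence AACAAAG. Start sites of lncRNAs can coincide with enhancers, and lncRNA genes also serve as hosts from which microRNAs and small nucleolar RNAs (snoRNAs) are processed.

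RBPJ, SOX2 and HA ChIP-seq was performed in MB157, a triple-negative breast cancer line driven by NOTCH, and in MB157R, the line derived from it by 25 weeks of growth in 1 µM of the gamma-secretase inhibitor (GSI) LY3039478. In all groups the cells carried a doxycycline-inducible vector and received 1 µg/ml doxycycline for 72 h, the controls with the empty vector (iEV) included. MB157 cells carried iEV or HA-tagged SOX2 (iSOX2), and MB157R cells carried iEV or iN1-ICD. RBPJ was precipitated in all 4 conditions, SOX2 in both MB157R conditions, and HA in MB157 iSOX2 (called HA-SOX2 below) and in MB157 iEV as a control. The series held 34 libraries, of which 22 were immunoprecipitations in 8 groups and 12 were inputs in 4 groups. Each immunoprecipitation group had 3 libraries except the HA control, which had 1. The peaks were called on pooled libraries, so each condition is 1 list without replicate spread, and no test between conditions could be made. MB157R is 1 derived line, so that what GSI did and what is particular to this derivation cannot be told apart.

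The lists held between 25243 peaks for RBPJ in MB157 iEV and 108203 for HA-SOX2 on these chromosomes, whereas SOX2 in MB157R iN1-ICD had 323 and the HA control had 77. The fold enrichment of a peak is the number of fragments at its summit over the number expected there, with 1 added to each. The expected number in the bulk of the genome, a measure of depth, was 1.60 fragments in RBPJ MB157 iEV, 2.04 in RBPJ MB157 iSOX2, 1.82 in RBPJ MB157R iEV and 1.75 in RBPJ MB157R iN1-ICD. It was 1.96 for SOX2 in MB157R iEV, 1.74 for SOX2 in MB157R iN1-ICD, 2.24 for HA-SOX2 and 0.524 for the HA control. Lists shortened to equal length are given beside the counts, and the part of depth was not tested.

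The sequences under 10 summits are shown first, chosen for the comparisons described after them. Each is 201 bases of hg38, on the plus strand, centered on the strongest summit of the promoter. Capitals mark every match to the motifs searched on both strands, which were GTGGGAA and GTGAGAA for RBPJ, AACAATG and AACAAAG and the variants TACAATG and TACAAAG for SOX factors, TGAGTCA for AP-1 and CCGGAAG for ETS factors. No motif holds another. The first 4 are RBPJ summits of MB157R iEV. LINC01186 (chrX:46327515-46327715) had the highest RBPJ fold enrichment of all members, LINC02028 (chr3:194071173-194071373) lies in the neighborhood of the NOTCH target gene HES1, and LINC02579 (chr2:64606582-64606782) and LINC01615 (chr6:169162947-169163147) hold an AP-1 match beside the RBPJ match.
LINC01186: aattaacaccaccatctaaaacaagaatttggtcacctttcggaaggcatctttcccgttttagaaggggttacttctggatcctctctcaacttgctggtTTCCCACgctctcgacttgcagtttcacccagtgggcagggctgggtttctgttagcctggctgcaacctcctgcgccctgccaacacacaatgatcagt
LINC02028: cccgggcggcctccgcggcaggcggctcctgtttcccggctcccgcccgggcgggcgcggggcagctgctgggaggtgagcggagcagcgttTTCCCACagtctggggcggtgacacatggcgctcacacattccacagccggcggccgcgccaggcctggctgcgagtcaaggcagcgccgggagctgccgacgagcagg
LINC02579: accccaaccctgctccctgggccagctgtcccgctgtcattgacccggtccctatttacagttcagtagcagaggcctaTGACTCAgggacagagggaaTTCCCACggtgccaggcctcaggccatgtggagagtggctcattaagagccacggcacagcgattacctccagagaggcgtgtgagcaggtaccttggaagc
LINC01615: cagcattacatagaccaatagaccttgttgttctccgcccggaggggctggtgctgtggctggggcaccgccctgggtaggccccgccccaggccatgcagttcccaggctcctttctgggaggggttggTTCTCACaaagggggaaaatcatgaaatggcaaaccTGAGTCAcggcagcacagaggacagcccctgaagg

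The RBPJ match began 1 base after the summit in LINC01186, 1 base before it in LINC02579, 8 bases before it in LINC02028 and 30 bases after it in LINC01615. The AP-1 match began 21 bases before the summit in LINC02579 and 66 bases after it in LINC01615.

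The next 4 are SOX2 summits of MB157R iEV. ENSG00000242012 (chr3:182365228-182365428) and NALCN-AS1 (chr13:100707872-100708072) are shown because they kept a SOX2 summit upon N1-ICD induction, LINC01392 (chr7:115231250-115231450) because it held SOX and AP-1 matches side by side, and MIR205HG (chr1:209428531-209428731), the host gene of miR-205, because RBPJ and SOX2 summits met there.
ENSG00000242012: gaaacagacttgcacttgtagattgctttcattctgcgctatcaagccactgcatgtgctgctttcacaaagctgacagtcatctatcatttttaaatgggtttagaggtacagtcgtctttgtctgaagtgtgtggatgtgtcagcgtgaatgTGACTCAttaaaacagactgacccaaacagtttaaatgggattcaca
NALCN-AS1: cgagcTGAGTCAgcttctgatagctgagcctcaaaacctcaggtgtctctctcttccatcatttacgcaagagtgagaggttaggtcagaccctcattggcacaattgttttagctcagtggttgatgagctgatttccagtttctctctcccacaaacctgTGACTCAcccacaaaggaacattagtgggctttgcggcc
LINC01392: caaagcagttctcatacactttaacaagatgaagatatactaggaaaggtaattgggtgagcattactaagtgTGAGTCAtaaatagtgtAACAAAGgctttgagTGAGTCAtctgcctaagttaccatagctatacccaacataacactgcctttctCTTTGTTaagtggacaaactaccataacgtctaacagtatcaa
MIR205HG: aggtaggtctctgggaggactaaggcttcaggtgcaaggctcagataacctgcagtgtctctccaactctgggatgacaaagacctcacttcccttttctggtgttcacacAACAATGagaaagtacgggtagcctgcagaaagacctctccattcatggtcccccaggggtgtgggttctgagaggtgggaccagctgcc

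The last pair are HA-SOX2 summits of MB157 iSOX2, at LEMD1-AS1 (chr1:205372271-205372471), where no other list had a summit, and at ENSG00000285159 (chr6:158853565-158853765), the 1 member with a summit in all 7 lists other than the HA control.
LEMD1-AS1: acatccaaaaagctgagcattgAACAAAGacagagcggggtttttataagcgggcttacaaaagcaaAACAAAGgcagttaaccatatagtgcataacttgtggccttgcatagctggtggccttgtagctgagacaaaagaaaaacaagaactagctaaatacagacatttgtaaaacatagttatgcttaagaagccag
ENSG00000285159: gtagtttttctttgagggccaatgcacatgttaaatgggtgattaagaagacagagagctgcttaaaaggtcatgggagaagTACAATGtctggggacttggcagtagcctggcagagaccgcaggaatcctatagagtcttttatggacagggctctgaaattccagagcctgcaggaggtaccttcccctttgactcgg

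RBPJ occupied 924 isolated lncRNA promoters in MB157 iEV, 1287 with iSOX2, 1525 in MB157R iEV and 1245 with iN1-ICD. A promoter was occupied if at least 1 peak summit lay within 1 kb of its TSS. These counts are 6.85% of the members in MB157 iEV (exact binomial 95% interval 6.43 to 7.29%), 9.54% with iSOX2 (9.05 to 10.0%), 11.3% in MB157R iEV (10.8 to 11.8%) and 9.23% with iN1-ICD (8.74 to 9.73%). The intervals cover counting error only, here and below, because the peaks are not independent molecules or cultures. With the 4 lists shortened to the length of the shortest, by −log10 q, the counts were 924, 1028, 1040 and 929, which lie closer together. Over all 38726 promoters the shares of the full lists were 28.3%, 37.6%, 41.9% and 32.4% in the same order. Among protein-coding promoters they were 40.3%, 53.6%, 59.6% and 45.6%, and among the 5263 lncRNA promoters near a protein-coding TSS 37.5%, 48.9%, 52.7% and 41.7%.

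SOX2 occupied 1005 members (7.45%, 95% interval 7.01 to 7.90%) in MB157R iEV, where it occupied 17.5% of all promoters and 22.9% of protein-coding promoters. HA-SOX2 occupied 1653 members (12.3%, 11.7 to 12.8%), against 27.2% of all promoters and 35.3% of protein-coding ones. Its list was the longest, and with it shortened to the length of the SOX2 list HA-SOX2 occupied 507 members (3.76%), fewer than SOX2. With N1-ICD, SOX2 summits were left at 5 members (0.0371%, 0.0120 to 0.0865%), and 0.0646% of all promoters held one. The HA control had summits at 6 members (0.0445%), which rest on 4 distinct summits, and at 0.0646% of all promoters. In each of the 7 lists a smaller share of isolated lncRNA promoters than of protein-coding promoters was occupied. Together 3090 members (22.9%) had a summit in at least 1 of the 7 lists, and 10403 had none.

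**Figure D1:**
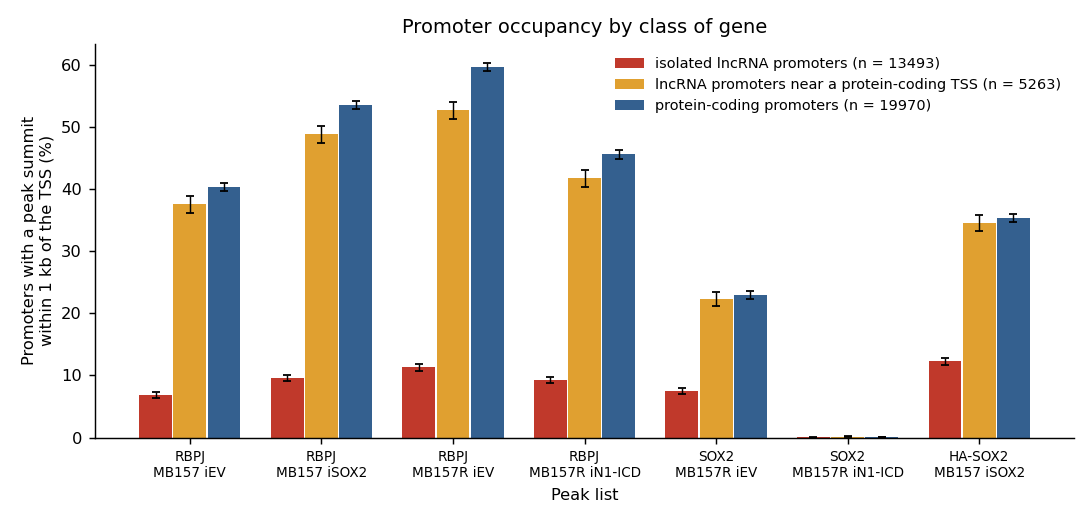
Share of promoters (%, vertical axis from 0) with a peak summit within 1 kb of the TSS in each peak list, for isolated lncRNA, other lncRNA and protein-coding promoters. Error bars are exact binomial 95% intervals. The isolated lncRNA promoters lie lowest in every list, between 6.85% and 12.3% outside the nearly empty SOX2 list of MB157R iN1-ICD. The lists differ in length, and HA-SOX2 falls from 12.3% to 3.76% of isolated lncRNA promoters, below SOX2 at 7.45%, when shortened to the length of the SOX2 list.

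Where these promoters were occupied, the median peak was about as strong as at protein-coding promoters for RBPJ and stronger for SOX2. The median fold enrichment of RBPJ at occupied members was 5.34 in MB157 iEV, 4.78 with iSOX2, 6.02 in MB157R iEV and 5.10 with iN1-ICD, and at occupied protein-coding promoters it was 5.11, 4.94, 6.37 and 5.08. For SOX2 in MB157R iEV the median was 5.32 at members and 4.39 at protein-coding promoters, and for HA-SOX2 5.55 and 4.32. The median summit at members rested on 17 fragments for RBPJ in MB157 iEV and on 23 for HA-SOX2, and the weakest summits of these lists rested on 8.

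The summits clustered around the TSS. RBPJ had 36.9 summits per kb per 1000 members within 1 kb of the TSS in MB157 iEV against 10.1 at 2 to 4 kb, a ratio of 3.66. The ratio was 3.85 with iSOX2, 3.08 in MB157R iEV and 3.04 with iN1-ICD. It was 2.48 for SOX2 in MB157R iEV and 1.74 for HA-SOX2, which had the highest density at 2 to 4 kb, with 36.7 summits per kb per 1000 members. Of the summits within 1 kb, 50.8% lay within 250 bp of the TSS for RBPJ in MB157R iEV and 38.9% for HA-SOX2. SOX2 summits lay more often upstream than downstream of the TSS in MB157R iEV (55.7%), and RBPJ summits were near balance (46.8 to 52.3% upstream).

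**Figure D2:**
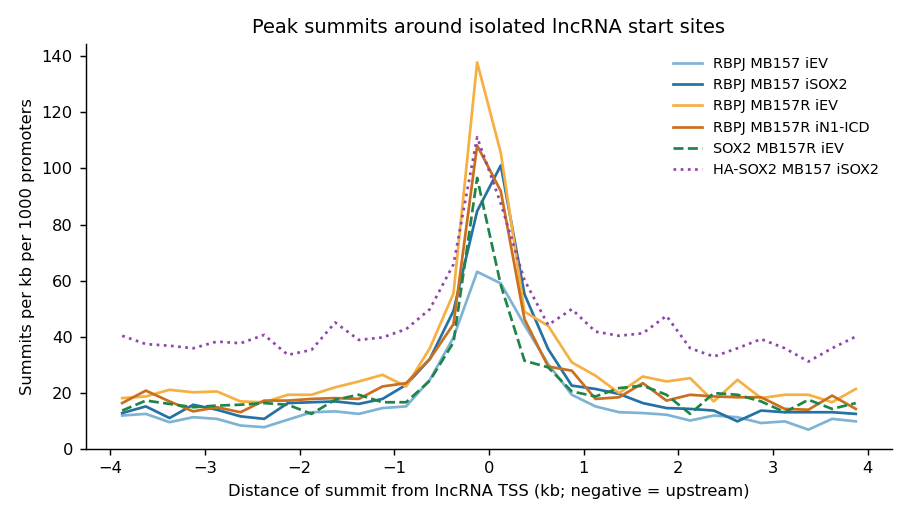
Number of summits per kb per 1000 isolated lncRNA promoters (vertical axis) in 250 bp bins by distance from the TSS in kb (horizontal axis, negative values upstream), for the 6 long peak lists. All lines peak at the TSS, and HA-SOX2 is highest on average 2 to 4 kb away, at 36.7 summits per kb per 1000 promoters.

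Isolated lncRNA promoters are poor in CpG dinucleotides, and occupancy differed with CpG content. A promoter was called CpG-rich if, in 501 bp around the TSS, the observed to expected CpG ratio was above 0.6 and the GC content above 50%. This held for 1325 members (9.82%) and for 67.6% of protein-coding promoters. RBPJ in MB157R iEV occupied 640 of the 1325 CpG-rich members (48.3%, 95% interval 45.6 to 51.03%) and 885 of the 12168 others (7.27%, 6.82 to 7.75%). In MB157 iEV it occupied 33.4% of the CpG-rich and 3.95% of the CpG-poor members. Within CpG-rich promoters, protein-coding genes were still occupied more often (79.6% in MB157R iEV and 54.4% in MB157 iEV), as they were within CpG-poor promoters (17.9% and 11.05%). SOX2 in MB157R iEV occupied 20.0% of CpG-rich and 6.08% of CpG-poor members, and HA-SOX2 29.3% and 10.4%. Among occupied members, CpG-rich promoters made up 47.9% for RBPJ in MB157 iEV, 42.0% for RBPJ in MB157R iEV, 26.4% for SOX2 in MB157R iEV and 23.5% for HA-SOX2.

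**Figure D3:**
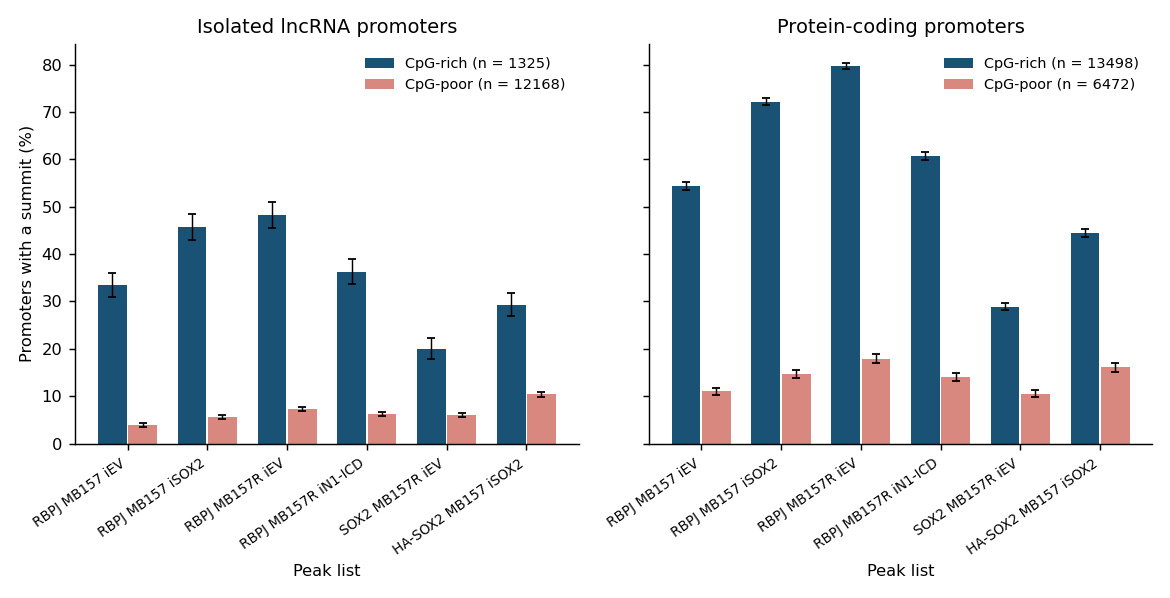
Share of promoters (%, vertical axis from 0) with a summit within 1 kb of the TSS in 6 peak lists, split into CpG-rich and CpG-poor promoters, for isolated lncRNA genes (left) and protein-coding genes (right), with exact binomial 95% intervals. In both classes CpG-rich promoters lie higher in every list, for RBPJ in MB157R iEV at 48.3% against 7.27% of isolated lncRNA promoters.

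RBPJ in MB157R iEV occupied 12.6% of members 5 to 10 kb from a protein-coding TSS, 15.3% at 10 to 20 kb, 14.0% at 20 to 50 kb, 12.6% at 50 to 100 kb, 10.5% at 100 to 200 kb and 4.48% beyond 200 kb. SOX2 in the same cells ranged from 6.97% to 8.90% in the first 5 bins and was at 3.67% in the last. Members outside protein-coding gene bodies were occupied by RBPJ in MB157R iEV at 13.2%, those inside on the opposite strand at 7.23% and those inside on the same strand at 5.55%. Of the strongest RBPJ summits of this list, 52.7% lay upstream of the gene, 26.2% in an exon and 21.2% in an intron or past the end of the gene.

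RBPJ matches were about as common at the members' summits as over the whole lists. An RBPJ match lay within 100 bp of 23.1% of RBPJ summits at members in MB157 iEV (95% interval 20.3 to 26.0%), 19.1% with iSOX2, 16.1% in MB157R iEV (14.2 to 18.1%) and 19.4% with iN1-ICD. Over all summits of these lists it was 21.7%, 19.7%, 16.4% and 20.0%. In 201 bp centered on the TSS, 8.67% of all members and 6.69% of all promoters held an RBPJ match. In the 2 kb regions 57.2% of members and 53.9% of all promoters did, so that a match somewhere in a promoter region is common.

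An AP-1 match lay within 100 bp of 5.20% of RBPJ summits at members in MB157 iEV (3.82 to 6.89%) and of 5.55% in MB157 iSOX2. In MB157R it was 15.7% (13.9 to 17.7%) with iEV and 15.8% (13.8 to 18.0%) with iN1-ICD. The same held over all RBPJ summits, at 4.74%, 4.58%, 18.5% and 17.0%, so that the higher share in MB157R was also seen over the whole lists. At the strongest RBPJ summits of protein-coding promoters the shares were 1.71%, 1.61%, 2.81% and 3.15%. Of protein-coding promoters 67.6% were CpG-rich, against 9.82% of members, and their motif shares were not split by CpG content. In MB157R iEV an AP-1 match lay at the strongest RBPJ summit of 3.28% of CpG-rich and 23.5% of CpG-poor members. SOX2 summits at members in MB157R iEV held an AP-1 match in 28.1% (25.3 to 31.0%), against 31.0% over the list. At the strongest SOX2 summits of protein-coding promoters it was 5.81%. At those of CpG-rich and CpG-poor members it was 7.55% and 34.5%. HA-SOX2 summits at members in MB157 held one in 6.35% (5.21 to 7.66%). In 201 bp around the TSS, 4.73% of members and 3.10% of all promoters held an AP-1 match, and in the 2 kb regions 30.7% and 24.04%.

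SOX matches were found at 32.4% of HA-SOX2 summits in members (30.2 to 34.8%) and at 21.3% of SOX2 summits in MB157R iEV (18.7 to 23.98%). Over the whole lists the shares were 41.2% and 24.8%, and at the strongest summits of protein-coding promoters 17.3% and 15.8%. Around the TSS, 13.0% of members and 8.10% of all promoters held a SOX match, and in the 2 kb regions 72.9% and 61.2%. ETS matches were seen at 6.02% of RBPJ summits at members in MB157R iEV, against 4.51% over the list. At the strongest RBPJ summits of protein-coding promoters it was 11.5%. Around the TSS, 2.55% of members and 7.69% of all promoters held one. In the 2 kb regions it was 9.93% and 21.7%. A match is a stretch of letters and was not taken as a binding site.

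**Figure D4:**
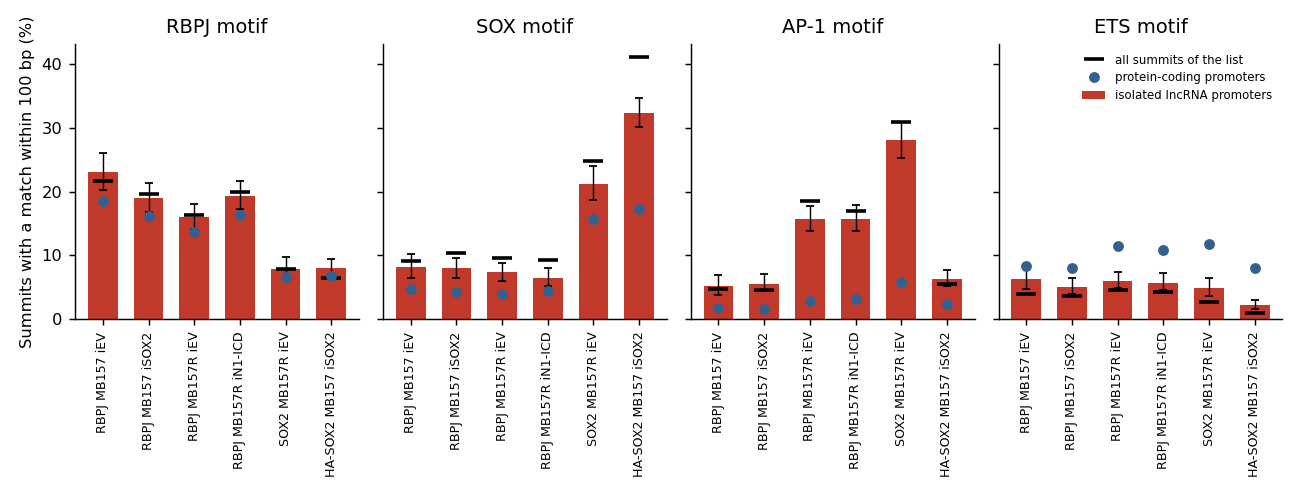
Share of summits (%, vertical axis from 0) with a motif match within 100 bp, by motif (panels) and peak list (horizontal axis). Bars with exact binomial 95% intervals are summits in isolated lncRNA promoters, black dashes all summits of the list, and blue points the strongest summits of protein-coding promoters. The AP-1 bars rise from 5.20% for RBPJ in MB157 iEV to 15.7% in MB157R iEV and 28.1% for SOX2 in MB157R iEV.

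The comparison of MB157 iEV with MB157R iEV asks where RBPJ is found before and after GSI resistance. RBPJ had a summit in both lines at 606 members, in MB157 alone at 318 and in MB157R alone at 919. Over all promoters these classes made up 24.4%, 3.9% and 17.5%. The shared members were 65.6% of those occupied in MB157 (62.4 to 68.6%) and 39.7% of those occupied in MB157R (37.3 to 42.2%), whereas at protein-coding promoters the shares were 88.8% and 60.0%. When the RBPJ lists were shortened to equal length, MB157R iEV occupied 1040 members against 924, and 496 (53.7% of the MB157 members) were shared. Shared members were CpG-rich in 58.6%, those of MB157 alone in 27.7% and those of MB157R alone in 31.0%.

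The classes also differed in their motifs. An AP-1 match lay at the strongest RBPJ summit of 178 of the 919 members called in MB157R alone (19.4%), of 51 of the 606 shared members (8.42%, MB157R summit) and of 9 of the 318 called in MB157 alone (2.83%). The same classes of protein-coding promoters had one in 3.25%, 2.35% and 1.44%. An RBPJ match was found at 11.9% of the members of MB157R alone, 22.8% of the shared ones and 22.3% of those of MB157 alone, against 8.97%, 16.8% and 18.2% at protein-coding promoters. SOX2 summits in MB157R iEV were present at 460 of the 919 members with RBPJ in MB157R alone (50.1%), at 296 of the 606 shared members (48.8%) and at 30 of the 318 members of MB157 alone (9.43%). Among protein-coding promoters SOX2 was at 1427 of 4763 (29.96%), 2890 of 7149 (40.4%) and 65 of 905 (7.18%), so that the lowest share in MB157 alone was also seen there.

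LINC01186, on chromosome X with its TSS at 46327649 on the minus strand and 119.6 kb from KRBOX4, held the strongest RBPJ peak of the members in each of the 4 conditions. Its fold enrichment was 53.3 in MB157 iEV (219 fragments), 50.6 with iSOX2 (255), 63.6 in MB157R iEV (185) and 61.3 with iN1-ICD (171), with all 4 summits in an exon 34 to 36 bp from the TSS. It also had SOX2 at 9.24-fold and HA-SOX2 at 18.3-fold. LINC01348, 54.6 kb from TOMM20, had RBPJ at 48.0-fold in MB157 iEV, 37.0 with iSOX2, 20.3 in MB157R iEV and 32.4 with iN1-ICD, the highest of these in the parental line. ENSG00000260132 on chromosome 16 had 31.9, 49.7, 49.4 and 33.6-fold in the same order with all 4 summits 548 to 554 bp upstream of the TSS, and SOX2 at 9.91-fold and HA-SOX2 at 11.7-fold. ENSG00000274949 on chromosome 20 had 45.7, 33.9, 20.2 and 25.8-fold, again highest in MB157 iEV, with SOX2 at 10.8-fold and HA-SOX2 at 12.4-fold. ENSG00000290911 and ENSG00000291046 start on opposite strands of chromosome 13 and share 1 RBPJ summit, with 24.96, 21.4, 43.9 and 30.9-fold and neither SOX2 nor HA-SOX2.

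Around HES1, a canonical NOTCH target gene that encodes a repressor, several lncRNA promoters held RBPJ. They were looked up after their values had been seen. LINC02028, 65.2 kb from HES1, had RBPJ at 32.7-fold in MB157 iEV, 21.9 with iSOX2, 33.9 in MB157R iEV and 27.9 with iN1-ICD, at about the same level in both lines. LINC02026, 132 kb from HES1, had 6.93-fold (19 fragments) in MB157 iEV and 8.66 in MB157 iSOX2 but 31.0 (117 fragments) in MB157R iEV and 27.4 with iN1-ICD. SOX2 was present there at 10.6-fold in MB157R iEV and HA-SOX2 at 5.80-fold. At ENSG00000229964, 44.6 kb from HES1, RBPJ was called in MB157R alone, at 6.77-fold with iEV and 9.36 with iN1-ICD, with an RBPJ and an AP-1 match at the summit.

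LINC01615 and LINC02579 had higher values in MB157R. LINC01615, 87.8 kb from THBS2, had RBPJ at 4.53-fold in MB157 iEV (12 fragments), 9.88 with iSOX2 (29), 36.8 in MB157R iEV (103) and 28.9 with iN1-ICD (86). LINC02579, 46.6 kb from SERTAD2, had 18.3, 15.9, 37.1 and 38.8 in the same order. LINC00112 and LINC00479 start close together on opposite strands near RIPK4 and share 1 summit, with 6.09-fold in MB157 iEV, 8.21 with iSOX2, 17.3 in MB157R iEV and 42.5 with iN1-ICD, the last with 161 fragments. Of the peaks called in MB157R alone, those among the strongest at members were ENSG00000271259 near DUSP6 (31.5-fold with iEV, 23.3 with iN1-ICD, SOX2 14.5) and ENSG00000289938 near EPHB6 (22.995 and 19.6, SOX2 7.61).

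In the opposite direction, ENSG00000285201 near TTLL7 had RBPJ at 32.3-fold (83 fragments) in MB157 iEV and 10.7 in MB157 iSOX2, no summit in MB157R iEV, and 6.12 with iN1-ICD. ENSG00000289167 near IL1R2, which encodes a decoy receptor for interleukin 1, had 25.0-fold in MB157 iEV, 5.93 in MB157 iSOX2 and no summit in either MB157R list. ENSG00000287329 had 52.5-fold in MB157 iEV and 46.0 in MB157 iSOX2 and no peak in MB157R, but the 51 bases at its summit on chromosome 9 occur 3 times in hg38, so the place of its reads is uncertain.

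Induction of SOX2 in MB157 left most RBPJ promoters in place. RBPJ was called in both MB157 iEV and iSOX2 at 782 of the 13493 members, in iEV alone at 142 and in iSOX2 alone at 505. For comparison, the same classes made up 25.6%, 2.69% and 12% of all promoters. The shared members were 84.6% of the iEV members and 60.8% of the iSOX2 members. Over all promoters these shares were higher, at 90.5% and 68.1%. With the RBPJ lists at equal length, RBPJ occupied 1028 members with iSOX2 against 924 with iEV. HA-SOX2 was present at 497 of the 782 shared members (63.6%), 243 of the 505 called with iSOX2 alone (48.1%) and 46 of the 142 called with iEV alone (32.4%). Protein-coding promoters had the same order, with 61.3%, 41.7% and 34.98%. The strongest members called with iSOX2 alone and overlapped by no iEV peak were ENSG00000224950 near CD58 (11.8-fold), SMYD3-AS1 (10.3) and ATP6V1B1-AS1 (9.25). SMYD3-AS1 had HA-SOX2 at 54.9-fold, whereas the other two had no HA-SOX2 summit.

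Induction of N1-ICD in MB157R was followed by a shorter RBPJ list. RBPJ was called at 1061 of the 13493 members in both MB157R conditions, at 464 with iEV alone and at 184 with iN1-ICD alone. For comparison, the same classes made up 30.3%, 11.6% and 2.09% of all promoters. The shared members were 69.6% of the iEV members and 85.2% of the iN1-ICD members. Over all promoters these shares were 72.4% and 93.5%. With the RBPJ lists at equal length, RBPJ occupied 929 members with iN1-ICD against 1040 with iEV. The strongest RBPJ peaks with iN1-ICD alone were LINC02087 near ADORA2B (14.5-fold), ENSG00000277999 (11.6) and ENSG00000224260 (9.98), and the 51 bases at the LINC02087 summit occur 2 times in hg38. LINC02226, ENSG00000249159 and MIR4458HG share 1 RBPJ summit, at 9.92-fold with iEV, and no peak overlapped them with iN1-ICD. RBPJ was present in all 4 conditions at 467 members (3.46%, against 18.9% of all promoters), or 342 with lists of equal length and 268 at a −log10 q of at least 5, with a median fold over the 467 of 5.88 in MB157 iEV, 6.18 with iSOX2, 7.80 in MB157R iEV and 5.59 with iN1-ICD.

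RBPJ and SOX2 met at many of the promoters in MB157R iEV. Both factors had a summit at 756 of the 13493 members, RBPJ alone at 769 and SOX2 alone at 249. For comparison, the same classes made up 15.9%, 26.0% and 1.58% of all promoters. Among members with SOX2, 75.2% had RBPJ (72.4 to 77.9%), against 94.2% of protein-coding promoters with SOX2. This share was 93.2% for CpG-rich members and 68.8% for CpG-poor ones. For protein-coding promoters it was 96.7% and 80.2%. Among members with RBPJ, 49.6% had SOX2, against 36.2% of protein-coding promoters with RBPJ. With the RBPJ list shortened to the length of the shortest RBPJ list, 592 members had both and 58.9% of SOX2 members had RBPJ, and at a −log10 q of at least 5 both were at 456. The summits of both factors lay a median of 116 bp apart at members and 165 bp apart at protein-coding promoters, and less than 500 bp apart at 88.4% of 688 members whose pair of summits was distinct. Members with SOX2 alone were CpG-rich in 7.23% and had an AP-1 match at 34.5% of their summits, whereas members with both were CpG-rich in 32.7% with AP-1 at 25.0% of the SOX2 summits, and the RBPJ-only members had AP-1 at 7.80%. Protein-coding promoters had the same order of AP-1 shares, with 12.1%, 5.00% and 2.13%. Over all summits AP-1 was at 31.0% in the SOX2 list and 18.5% in the RBPJ list. Members with the strongest SOX2 and no RBPJ peak were LINC01758 (15.5-fold), ENSG00000235911 (15.3) and CD200R1L-AS1 (13.2).

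In MB157 iSOX2, RBPJ and HA-SOX2 were both present at 740 of the 13493 members, RBPJ alone at 547 and HA-SOX2 alone at 913. For comparison, the same classes made up 21.0%, 16.6% and 6.2% of all promoters. RBPJ was found at 44.8% of HA-SOX2 members (42.4 to 47.2%), against 83.6% of protein-coding promoters with HA-SOX2. Both were at 372 members at a −log10 q of at least 5, and at 187 with the RBPJ list shortened to the shortest RBPJ list and the HA-SOX2 list to the length of the SOX2 list. The share was 86.6% among CpG-rich members and 31.9% among CpG-poor ones. Among protein-coding promoters it was 88.6% and 54.8%. The members with HA-SOX2 alone were CpG-rich in 5.70%, and a SOX match lay at 40.4% of their strongest summits, against 21.8% where RBPJ was also present. Protein-coding promoters had the same order, with 25.0% and 15.2%, and over all HA-SOX2 summits the share was 41.2%. The summits of RBPJ and HA-SOX2 lay a median of 177 bp apart at members.

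SOX2 in MB157R iEV and HA-SOX2 in MB157 iSOX2 shared 463 of the 13493 members, with 542 in MB157R alone and 1190 in MB157 alone. For comparison, the same classes made up 11.7%, 5.79% and 15.5% of all promoters. The shared members were 46.1% of the MB157R members (43.0 to 49.2%) and 28.0% of the HA-SOX2 members. At protein-coding promoters these shares were 70.2% and 45.6%. With the HA-SOX2 list shortened to the length of the SOX2 list, HA-SOX2 occupied 507 members and 146 were shared, and at a −log10 q of at least 5 it was 275. The antibodies and the source of SOX2 (tagged and induced, or the cells' own) differed as well as the lines, and their parts cannot be told apart. An AP-1 match lay at 34.5% of the strongest summits of members called in MB157R alone, at 3.70% of those called in MB157 alone and at 19.01% of the shared ones (MB157R summit). A SOX match was found at 17.5%, 33.6% and 24.8%. In the same classes of protein-coding promoters the AP-1 shares were 9.08%, 1.90% and 3.86%, so that their ranking was the same there. The SOX shares of these protein-coding classes were 12.01%, 15.7% and 16.7%. They were lowest in MB157R alone, as at members, but highest at the shared promoters.

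The strongest HA-SOX2 members had values well above those of SOX2 in MB157R. ENSG00000286383, 76.3 kb from SOX13, had HA-SOX2 at 163-fold with 920 fragments and no SOX2 summit in MB157R. DLGAP1-AS2 had 126-fold (491 fragments) with SOX2 at 8.79-fold in MB157R iEV, and LINC01997, 125 kb from MECOM, had 103-fold (373 fragments) with SOX2 at 8.11-fold. LEMD1-AS1 had 94.5-fold (615 fragments) and no summit of any other list. LINC01392 had like values in both, with SOX2 at 25.1-fold in MB157R iEV (120 fragments) and HA-SOX2 at 25.1-fold (105 fragments). The strongest SOX2 members of MB157R iEV without HA-SOX2 were ENSG00000254991 near MICAL2 (22.6-fold), ENSG00000204876, 139.6 kb from SHH (22.4), and ENSG00000267457 (21.6).

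With N1-ICD induction SOX2 summits remained at 5 of the 1005 members with SOX2 in MB157R iEV (0.50%), and 1000 had one with iEV alone. They remained at 25 of the 6761 promoters of any class with SOX2 in MB157R iEV (0.37%). At protein-coding promoters they remained at 16 of 4582 (0.35%). Of all promoters, 0.0646% had SOX2 in both conditions and 17.4% with iEV alone. The 5 members were ENSG00000242012 (29.96-fold with iEV, 6.72 with iN1-ICD), ENSG00000285159 (23.1 and 5.47), NALCN-AS1 (14.6 and 5.79), ENSG00000277270 (10.7 and 7.57) and CASC15 (9.61 and 2.71). The fold was lower with iN1-ICD at each of them, and the summits lay a median of 16 bp apart. An AP-1 match was found at 4 of the 5 iN1-ICD summits (exact binomial interval 28.4 to 99.5%), all but CASC15. Over all summits of the iN1-ICD list, 90 of 323 held one (27.9%). At protein-coding promoters it was 2 of the 14 strongest summits. The expected background of the iN1-ICD list was 1.74 fragments against 1.96 with iEV, and the cause of the short list was not tested. LINC01392, ENSG00000214650 and ENSG00000254057 had the strongest SOX2 peaks without a counterpart, at 25.1-fold, 26.7 and 25.5.

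CASC15, a lncRNA 72.7 kb from SOX4, stood apart in its background. At its SOX2 summit of MB157R iEV 515 fragments were counted over an expected 52.7, which is 26.9 times the genome background of that list. The expected number was 46.3 in the SOX2 list and 48.4 in the RBPJ list of MB157R iN1-ICD, but 2.31 and 2.56 in RBPJ and HA-SOX2 of MB157 iSOX2. The members ENSG00000287404, ENSG00000231754 and ENSG00000286368, whose nearest protein-coding gene is also SOX4, had 21.7, 35.7 and 31.5 to 35.4 expected fragments in MB157R lists. ROCK1P1, on another chromosome, had a high background in both lines, with 37.2 expected fragments for RBPJ in MB157 iSOX2 and 64.7 for RBPJ in MB157R with iN1-ICD. On chromosome 3, LINC00620 had 9.45 expected fragments for RBPJ in MB157R iEV and 10.01 with iN1-ICD, and ENSG00000287964 and ENSG00000288969 had 9.38 and 9.03 with iN1-ICD, all above 5 times the genome background. Other members named from this chromosome were lower in the RBPJ list of MB157R iEV, with 2.81 at LINC02026, 3.58 at ENSG00000229964, 2.81 at ENSG00000242012 and 4.599 at LINC00973, against a genome background of 1.82. DNA copy number was not analysed here, and the cause was not tested. In each of the 7 lists at most 8 members exceeded 5 times the genome background.

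Of 38 lncRNAs known from cancer, 25 were members, and 20 of these had a summit in at least 1 of the 7 lists, against 22.9% of all members. RBPJ was at 11 of the 25 in MB157 iEV, 12 with iSOX2, 10 in MB157R iEV and 14 with iN1-ICD, SOX2 in MB157R iEV at 11 and HA-SOX2 at 10. The shares of all promoters in these lists were 28.3%, 37.6%, 41.9%, 32.4%, 17.5% and 27.2%. On these 25 genes the share was near that of all promoters for RBPJ in MB157R iEV and above it in the other lists named. MALAT1, an abundant nuclear RNA, had RBPJ at 16.5-fold in MB157 iEV, 16.5 with iSOX2, 17.9 in MB157R iEV and 13.4 with iN1-ICD, and SOX2 at 24.9-fold in MB157R iEV 22 bp upstream of the TSS. NEAT1, the scaffold of paraspeckles, had RBPJ at 6.19, 8.64 and 7.38-fold in MB157 iEV, MB157 iSOX2 and MB157R iN1-ICD, and a peak with its summit outside the region in MB157R iEV. NORAD, which binds Pumilio proteins, had RBPJ at 4.12 to 8.10-fold in the 4 conditions. In MALAT1 the values of both lines overlapped.

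Several cancer-associated lncRNAs had summits in MB157R lists and none in MB157 lists. LINC00460 had RBPJ at 8.12-fold with iEV and 8.84 with iN1-ICD, and SOX2 at 5.07-fold with iEV. LUCAT1 had RBPJ at 7.44 and 7.13-fold and SOX2 at 11.2-fold, LINC00973 had RBPJ at 6.07 and 7.96-fold and SOX2 at 8.59-fold, and UCA1 had RBPJ at 8.73-fold with iN1-ICD, an RBPJ peak with its summit outside the region with iEV, and SOX2 at 10.7-fold. LINC01638 had a SOX2 summit in MB157R iEV and no other. Others went the opposite way or in no direction. LINC01133, CASC9, BCAR4 and LINC00261 had summits in MB157 lists and none in MB157R lists. LINC00472 had RBPJ at 11.7 and 19.4-fold in MB157 iEV and iSOX2 and 8.50 and 7.37 in the MB157R conditions, and CCAT2, near the MYC locus, had 18.4-fold in MB157 iEV, a peak whose summit lay outside the region in MB157R iEV, and 9.27 with iN1-ICD. PVT1, beside MYC, was at 2.62 to 6.52-fold in all 4 conditions.

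**Figure D5:**
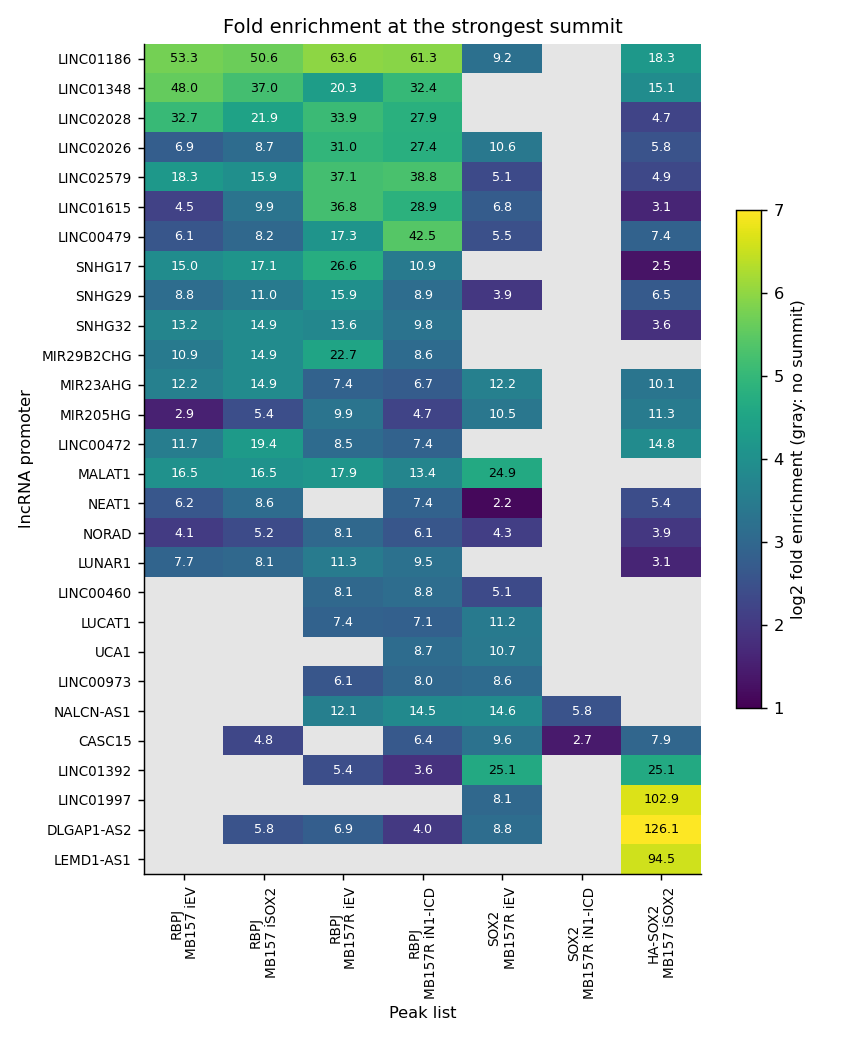
Fold enrichment at the strongest summit within 1 kb of the TSS (numbers, color on a log2 scale) for 28 named lncRNA promoters (rows) in 7 peak lists (columns), with gray where no summit lay in the region. LINC01186 has the highest RBPJ values (50.6 to 63.6), LINC02026 and LINC01615 are higher in MB157R than in MB157, and SOX2 in MB157R iN1-ICD has values at NALCN-AS1 and CASC15 alone among these rows.

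Of 20 snoRNA host genes, such as the SNHG genes and EPB41L4A-AS1, 18 had a summit in at least 1 list, 13 with RBPJ in MB157 iEV, 12 with iSOX2, 17 in MB157R iEV and 13 with iN1-ICD. SOX2 in MB157R iEV was at 3 of them and HA-SOX2 at 11. For RBPJ in MB157R iEV the share over all members was 11.3%, and 22.9% of all members had a summit in at least 1 list. The shares of all promoters were 28.3%, 37.6%, 41.9% and 32.4% for RBPJ in the order above. They were 17.5% for SOX2 and 27.2% for HA-SOX2. On these 20 genes the share was near that of all promoters for SOX2 and above it in the other lists named. SNHG17 had RBPJ at 15.0, 17.1, 26.6 and 10.9-fold in MB157 with iEV and iSOX2 and MB157R with iEV and iN1-ICD, SNHG32 had 13.2, 14.9, 13.6 and 9.81, and SNHG29 had 8.78, 11, 15.9 and 8.90. The median fold of the snoRNA hosts in MB157R iEV was 7.09, against 6.02 over all occupied members.

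Of 69 microRNA host genes, 35 had a summit, 20 with RBPJ in MB157 iEV, 24 in MB157 iSOX2, 21 in each MB157R condition, 16 with SOX2 in MB157R iEV and 15 with HA-SOX2. The RBPJ shares of 29.0% in MB157 iEV and 30.4% in MB157R iEV lay above those of all members (6.85% and 11.3%), but near and below those of all promoters (28.3% and 41.9%). RBPJ was at 37.6% of all promoters in MB157 iSOX2 and at 32.4% in MB157R iN1-ICD. SOX2 was at 23.2% of the hosts and HA-SOX2 at 21.7%, against 17.5% and 27.2% of all promoters. Of all members, 22.9% had a summit in at least 1 of the 7 lists. MIR29B2CHG, the host of miR-29 genes, had RBPJ at 10.9, 14.9, 22.7 and 8.60-fold in the order above and no SOX2. MIR23AHG had RBPJ at 12.2, 14.9, 7.40 and 6.74-fold, SOX2 at 12.2-fold and HA-SOX2 at 10.1-fold. MIR205HG, the host of a microRNA of basal epithelial cells, had RBPJ at 2.92, 5.39, 9.86 and 4.69-fold, SOX2 at 10.5-fold and HA-SOX2 at 11.3-fold, and all its summits lay within 188 bp upstream of the TSS. MIR4435-2HG had no summit in MB157 iEV, RBPJ at 3.62-fold with iSOX2, 8.86 in MB157R iEV with an AP-1 match and 6.90 with iN1-ICD, and SOX2 at 4.73-fold.

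LUNAR1, a lncRNA known as a NOTCH target in T cell leukemia, was the 1 member of a list of 2 NOTCH-linked lncRNAs. It had RBPJ in all 4 conditions, at 7.68-fold in MB157 iEV, 8.14 with iSOX2, 11.3 in MB157R iEV and 9.45 with iN1-ICD, in an intron 764 to 893 bp from the TSS. Of 8 members linked to SOX2 or stem cells, 4 had a summit: ESRG (SOX2 7.77-fold) and LINC-ROR (SOX2 4.39) in MB157R iEV, DLX6-AS1 with HA-SOX2 (10.2) and LNCPRESS1 with RBPJ in MB157 iEV (3.51). Of 12 lncRNAs of liver, blood, muscle and prostate, 2 had a summit, MIR155HG and MIR1-1HG. For comparison, 22.9% of all members did.

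The HA control, whose library is the shallowest, had summits at ENSG00000283696 and ENSG00000288093 (10.2-fold, 1 shared summit), ENSG00000289878 (9.05), ENSG00000253190 (8.68), and LINC01962 and TRIM7-AS2 (5.43, 1 shared summit). HA-SOX2 summits were called at all 6, between 5.42 and 7.17-fold, and RBPJ in MB157 iSOX2 as well. These 6 members had a peak without HA-tagged protein, so their HA-SOX2 values cannot be told apart from that background. The 51 bases at the control summit of ENSG00000283696 and ENSG00000288093 occur 9 times in hg38.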

How the data were processed

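RBPJ, SOX2 and HA ChIP-seq libraries of MB157 and MB157R cells were analyzed from 8 deposited peak lists. The authors trimmed the reads, aligned them to hg38 with BWA and called narrow peaks with MACS2 at a false discovery rate of 0.05 on pooled libraries (the HA control had 1). The deposited ratio is the fold enrichment at the summit, and the deposited −log10 p-values and −log10 q-values belong to the summit. Peak starts, ends and summit offsets are given by the authors in bp.

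The 22 autosomes and X were analyzed, and a summit was the start plus the offset. Start sites came from GENCODE release 44 (canonical transcripts of lncRNA and protein-coding genes), and isolation was measured to all protein-coding transcripts. Read totals per library were not used here. From its ratio and −log10 p, the fragments counted and expected at each summit were recovered, and 100% of peaks in each list gave a whole number that missed the deposited −log10 p by under 0.1 of the miss of the next best. The smallest expected number of a list is its genome background. Occupancy and recovery were tested on simulated data. Sequence came from hg38, matched to the lists by chromosome lengths, and soft-masked repeats were not used here. Exact binomial 95% intervals cover counting error only. No test between conditions was made, since each condition is 1 list.

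The named promoters were, for each list, the 5 of highest fold, the 10 in the most lists, for each pair of lists the 3 strongest called in 1 list and overlapped by no peak of the other, the listed genes with a summit and the members with an HA control summit. The text describes only a part of the promoters so named, chosen with their values known. Those nearest to HES1, SOX2, NOTCH1, MYC, CCND1 or NRARP were added after the values had been seen, and the motif counts were split by CpG content and by comparison at that stage too. The members and lists were chosen with earlier results of these data known. Genes of near-identical sequence cannot be told apart by aligned reads. Alternatives were 500 bp and 2 kb regions, isolation of 10 kb, other protein-coding start sites, peak overlap, a −log10 q of at least 5, lists of equal length and merged regions. Computations used Python 3.11.15 with SciPy 1.17.1, pandas 2.3.3 and NumPy 2.4.6, and plots used Matplotlib 3.10.9.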

Additional observations from a re-analysis of the deposited data

How the results depend on the processing

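Of 126 values of 14 counts under 9 alternatives, 107 stayed within 1.5 times the value given. Isolation of more than 10 kb (12101 members), canonical protein-coding start sites (14387), all transcripts of protein-coding genes (12470, chosen after seeing the data), peak overlap by 1 bp and merged regions (12868) moved no count by more than that. In regions of 500 bp to either side, HA-SOX2 occupied 1085 members, RBPJ and HA-SOX2 both 485, RBPJ in all 4 conditions 289, and SOX2 in MB157R iN1-ICD 3, all 3 also with iEV. In regions of 2 kb HA-SOX2 occupied 2498 members and SOX2 in MB157R iN1-ICD 9, all 9 also with iEV. SOX2 in MB157R iEV and HA-SOX2 then shared 697. At a −log10 q of at least 5, RBPJ occupied 600 members in MB157 iEV, 808 with iSOX2 and 820 in MB157R with iN1-ICD. Then RBPJ and SOX2 met at 456, RBPJ and HA-SOX2 at 372, RBPJ in all 4 conditions stood at 268, and SOX2 with HA-SOX2 at 275. With lists of equal length HA-SOX2 occupied 507 members, 187 with RBPJ and 146 with SOX2. The share of SOX2 members with RBPJ in MB157R iEV ranged from 58.9% to 79.1%, and the share of HA-SOX2 members with RBPJ from 29.8% to 46.1%. Fewer peaks enter the stricter lists by construction, and further causes were not tested.

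No paired analysis was possible because the peaks were called on pooled libraries. Leaving out a replicate was not run for the same reason. The weakest summits rest on 8 fragments, so weaker binding was not detectable at this depth.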
